A study of Mus musculus with 6 samples.

Results

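RNA from the somatosensory cortex of 6 male mice was sequenced, and the genes described here are the nuclear-encoded genes of oxidative phosphorylation. They were chosen by gene symbol, as the subunits of respiratory complexes I (*Nduf*), II (*Sdh*), III (*Uqcr* and *Cyc1*) and IV (*Cox4* to *Cox8*), of the ATP synthase or complex V (*Atp5*), and *Cycs*, which encodes cytochrome c. The rule found 85 of the 21667 named genes, of which 37 belonged to complex I, 4 to complex II, 9 to complex III, 1 to cytochrome c, 17 to complex IV and 17 to complex V. The 3 *Mef2c* cKO mice carried floxed *Mef2c* on both alleles (Mef2c fl/fl) together with Emx1-Cre, a knock-in at the endogenous *Emx1* locus. This driver recombines before birth in the lineage that gives rise to cortical and hippocampal glutamatergic neurons, and part of the glia of the forebrain recombines as well. The 3 controls were Cre-negative littermates and also Mef2c fl/fl, so that floxed *Mef2c* was shared by all 6 mice and only Cre was not. All were of a mixed SVeV-129 and C57BL/6J background, and replicate 1 of each genotype was 14 weeks old while replicates 2 and 3 were 12 weeks old. Cortical cells outside that lineage, in which the driver is not active, contributed to the same RNA, and fewer cells of a type and less RNA per cell cannot be told apart in such tissue.

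Oxidative phosphorylation takes place in the inner membrane of the mitochondrion. Complexes I and II pass electrons from NADH and succinate to ubiquinone, complex III passes them on to cytochrome c, and complex IV hands them to oxygen, while complexes I, III and IV pump the protons that drive the ATP synthase. Neurons depend on this pathway for the ion pumping that follows synaptic activity. Most subunits are encoded in the nucleus and imported, and the few encoded in mitochondrial DNA are not analysed here. *Mef2c* encodes a transcription factor of the MEF2 family that is also known from muscle, a tissue rich in mitochondria.

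For these genes, no difference in RNA level between the genotypes passed the test. Of the 85 members, 81 entered the test, and 0 passed the cut-offs, an adjusted p-value under 0.05 (limma with Benjamini-Hochberg adjustment over all 14625 tested genes) and a log2 fold change above 0.3 in either direction. Over all tested genes 1997 passed, which is 13.7%, with 7.77% decreased and 5.88% increased in *Mef2c* cKO cortex. At an unadjusted p-value under 0.05 there were 5 members, or 6.17%, against 28.5% of all tested genes. The values of the 3 *Mef2c* cKO and the 3 control mice did not overlap in 7 members, or 8.64%, against 33.8% of all tested genes, and 6 of these 7 members were higher in *Mef2c* cKO mice. The 6 were *Atp5a1*, *Atp5c1*, *Cyc1*, *Ndufb8*, *Ndufv1* and *Uqcrc1*, with log2 fold changes of 0.10 to 0.27. A second form of the test, with voom weights on the counts, also called 0 members. The median log2 fold change, *Mef2c* cKO minus control on the log2(CPM + 0.1) scale, was 0.06 over the 81 members and 0.01 over all tested genes, and 54 members lay above 0 and 27 below. This median rests on single mice, being 0.0013 (42 members above 0) without *Mef2c* cKO replicate 1, 0.12 (64 above 0) without *Mef2c* cKO replicate 3 and 0.03 (48 above 0) without control replicate 1.

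The intervals of these differences show which sizes of change the data leave room for. The 95% interval of the log2 fold change lay wholly within ±0.5 in 69 of the 81 members and within ±0.3 in 33, and its median half-width was 0.22. It reached past a rise of 0.3 in 36 members and past a fall of 0.3 in 20, so a change larger than the cut-off lay within the interval in those genes. The estimate itself was beyond 0.3 in either direction in 4 members, 3 of them in complex IV and 1 in complex V. Those in complex IV include *Cox7a1*, which entered the test only through the controls, the group where it is higher.

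**Figure D1:**
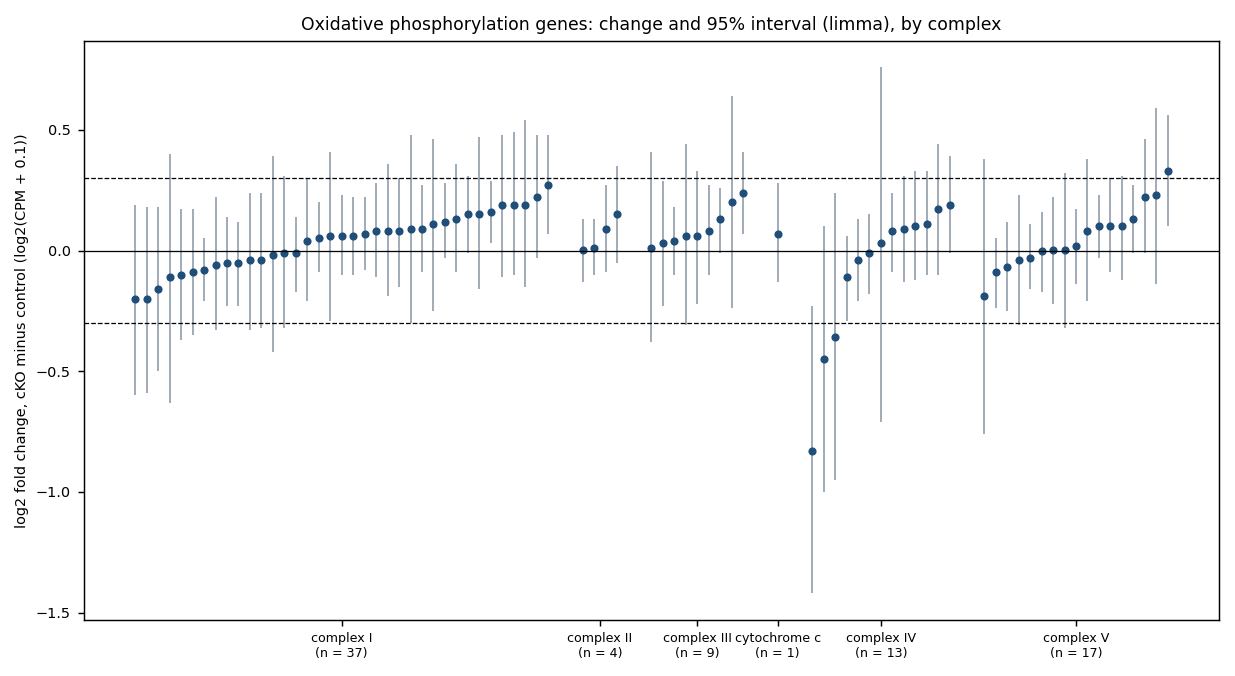
Log2 fold change of each of the 81 tested members (points, *Mef2c* cKO minus control, log2(CPM + 0.1)) with its 95% interval from limma (lines), ordered by size within each complex. The dashed lines mark ±0.3, and the interval of 76 of the 81 members spans 0.

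Libraries held 19326365 to 54128334 reads on genes, the smallest being *Mef2c* cKO replicate 2 and the largest *Mef2c* cKO replicate 3. Whole read counts were recovered from the deposited RPKM values (reads scaled to gene length and library size) and divided by each library's total, which gives CPM, the reads of a gene in every 1000000 reads of its library. *Mef2c* itself had 771.8 to 800.3 CPM in controls and 1231 to 1468 CPM under *Mef2c* cKO, with a log2 fold change of 0.74 (SE 0.07, adjusted p = 0.000176 by limma). These counts cover the whole gene, with the exons that Cre leaves in place, so they do not check the deletion. *Emx1*, chosen after its values were seen because Cre is inserted there, had 16.5, 20.3 and 18.8 CPM in the controls and 5.71, 4.97 and 5.10 CPM in the *Mef2c* cKO mice. Among marker lists of 20 genes each, 11 pyramidal neuron genes passed the cut-offs, 7 decreased and 4 increased. The 7 decreased include *Emx1*, where Cre is inserted. Of the oligodendrocyte genes 5 passed, all increased, while 0 microglia and 0 endothelial genes passed in limma (4 and 2 at an unadjusted p under 0.05). The share of tested genes that passed was 57.9% for pyramidal neuron genes and 25% for oligodendrocyte, general neuron and interneuron genes. It was 15% for astrocyte genes and 13.7% over all tested genes. The summed level of the oligodendrocyte list was 4199 to 6619 CPM in control and 6371 to 8178 CPM in *Mef2c* cKO mice. These groups overlapped, whereas those of the next lists did not. The sum was 13507 to 15323 CPM in control and 16052 to 16612 CPM in *Mef2c* cKO mice for general neuron markers (1 decreased, 4 increased). For interneuron markers it was 1723 to 1840 and 1952 to 2109 CPM (1 decreased, 4 increased). *Cck*, the most abundant of that list (mean 349 CPM), had a log2 fold change of 0.82. *Pvalb*, the decreased gene, had -0.80, and *Gad1*, which did not pass, had -0.26. For astrocyte markers it was 8076 to 8331 and 7341 to 7697 CPM, with 1 decreased and 2 increased, *Gfap* (log2 fold change 1.37) and *Aqp4* (0.73). *Slc1a2*, the most abundant of that list (mean 3140 CPM), had -0.25 and did not pass. Such sums follow their most abundant genes and do not count cells. The part of such shifts in the members' values was not tested. P-values of limma set the difference between genotypes against the spread between these mice. The variance of each gene is drawn there towards that of genes at a similar level.

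Levels of the members spanned a wide range. Scaled by annotated transcript length, as CPM per kb averaged over 6 mice, *Atp5b*, the catalytic beta subunit of the ATP synthase, was highest at 545 ± 27.7 (SD, n = 6). It was followed by *Ndufa4* at 486 ± 38.8, *Cox6a1* at 450 ± 32.0 and *Cox4i1* at 378 ± 39.1, all SD over 6 mice, and for each neighbouring pair in this order the values of the 6 mice overlapped. *Ndufa4* was first described in complex I, and its protein is now placed in complex IV. The median level of tested members was 111 CPM per kb in complex V, 96.6 in complex IV, 94.7 in complex II, 74.6 in complex III and 64.5 in complex I. At the low end, 4 of the 13 tested members of complex IV lay between 1.52 and 2.31 CPM per kb, namely *Cox6a2*, *Cox7b2*, *Cox4i2* and *Cox7a1*, all isoforms whose main sites are tissues other than brain. The 4 members that were not tested also belonged to complex IV. *Cox6b1*, which encodes the ubiquitous form of subunit 6b, and *Cox8c* were listed at 0 in every mouse, *Cox8b* had at most 0.0776 CPM and *Cox6b2* at most 0.367 CPM. Of the 31-base words in the *Cox6b1* transcript, 16% also occur elsewhere in the mm9 genome. *Cox5a*, with a share of 16.5%, had 189 to 223 CPM. *Pcp4*, a gene of the pyramidal neuron list, was likewise listed at 0 in every mouse. Why such genes were listed at 0 was not tested, so the 0 of *Cox6b1* does not show that its RNA is absent.

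**Figure D2:**
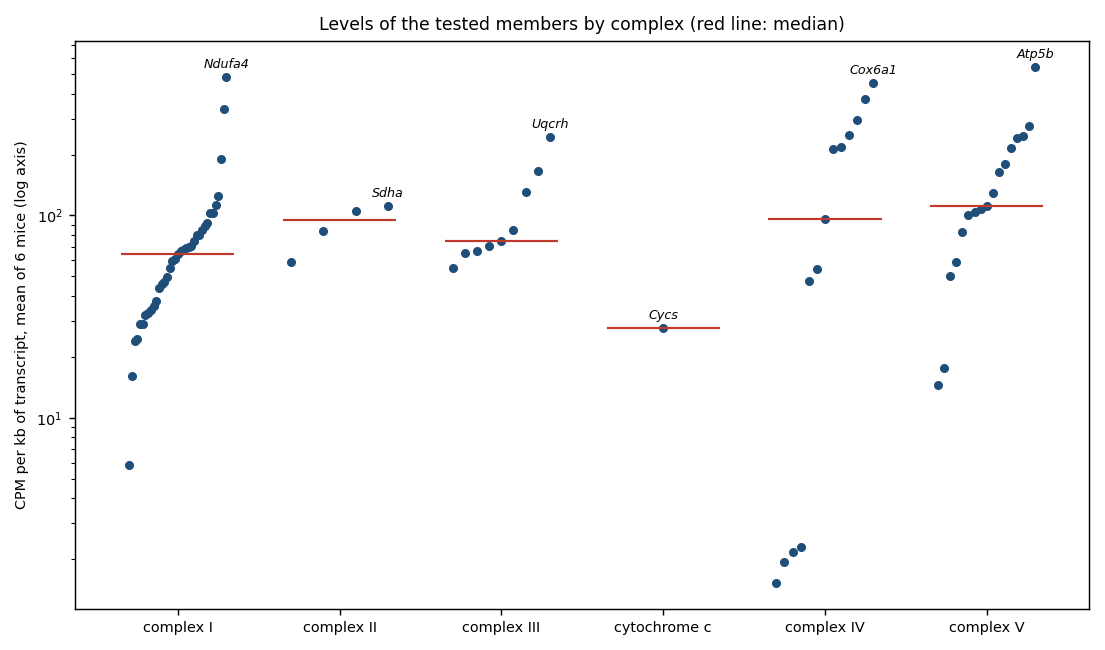
CPM per kb of annotated transcript, mean of 6 mice on a log axis, for each tested member (points) with the median of each complex (red line). The medians lie between 64.5 and 111 in complexes I to V, and 4 isoforms of complex IV lie between 1.52 and 2.31.

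Many members share stretches of sequence with other places in the genome, which limits how firmly single counts can be read. In 26 of the 85 members at least 20% of the 31-base words of the longest coding transcript occur elsewhere in mm9, and in 26 none do. Copies of a gene and other repeated sequence were not told apart. All words of *Atp5g2* occur elsewhere (100%), followed by *Atp5l* with 89.8%, *Uqcrb* with 77.4% and *Atp5h* with 72.9%. How the counting treated reads with several matches is not given in the sources used here, so the counts of these genes are uncertain. A further limit applies to 17 members with an exon that overlaps another gene. Only *Atp5o*, with *Donson*, and *Ndufb2*, with *Adck2*, overlap a gene on the same strand. The rest overlap on the other strand alone, among them *Cox6a2* with *Itgad*. The library was directional, and whether the counting used the strand was not tested.

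Complex I, the NADH dehydrogenase, has the most members, and 0 of its 37 tested genes passed, with 2 at an unadjusted p under 0.05. Their log2 fold changes ran from -0.20 to 0.27 with a median of 0.06. *Ndufb8* (chr19:44623062-44629930, mm9), an accessory subunit of the membrane arm, had the largest estimate. Its values were 173, 188 and 145 CPM in control replicates 1, 2 and 3 and 210, 204 and 193 CPM in *Mef2c* cKO replicates 1, 2 and 3. Every *Mef2c* cKO value thus lay above each control value, with a log2 fold change of 0.27 (95% interval 0.07 to 0.48) that did not pass in limma (adjusted p = 0.0781). *Ndufv1* (chr19:4007497-4012806), the core subunit that binds NADH and FMN, also did not overlap between genotypes. It had 121, 125 and 115 CPM in controls and 141, 133 and 130 CPM in *Mef2c* cKO mice. The log2 fold change was 0.16 (95% interval 0.03 to 0.29, adjusted p = 0.107 by limma). Its partner in the same module, the iron-sulfur subunit *Ndufv2* (chr17:66428135-66450899), had 105, 106 and 92.9 CPM against 117, 115 and 105 CPM. The highest control of *Ndufv2* was above the lowest *Mef2c* cKO mouse, and its log2 fold change was 0.15 (adjusted p = 0.2 by limma). *Ndufa4*, with the most reads of the complex, had 260, 210 and 227 CPM in controls and 254, 252 and 233 CPM in *Mef2c* cKO mice, and control replicate 1 was the highest of the 6. The summed level of complex I was 2423, 2506 and 2515 CPM in controls and 2846, 2601 and 2386 CPM in *Mef2c* cKO mice, so the *Mef2c* cKO group held both the highest and the lowest mouse.

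Complex II, or succinate dehydrogenase, is the smallest complex and is built from nuclear genes alone, and 0 of its 4 members passed or had an unadjusted p under 0.05. *Sdha* (chr13:74459702-74487728), the flavoprotein that oxidizes succinate, was the steadiest of the 77 members with a mean of at least 5 CPM. It had 325, 314 and 322 CPM in controls and 325, 324 and 322 CPM in *Mef2c* cKO mice, with 1.04-fold between the highest and the lowest mouse. The log2 fold change of *Sdha* was 0.01 (95% interval -0.10 to 0.13), so a change beyond the cut-off lay outside its interval. The iron-sulfur subunit *Sdhb* (chr4:140517118-140535108) had the largest estimate of the complex, with 111, 123 and 108 CPM against 137, 133 and 111 CPM. Its groups overlapped, and the log2 fold change was 0.15 (95% interval -0.05 to 0.35, adjusted p = 0.302 by limma).

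Complex III, the cytochrome bc1 complex, had 9 tested members, all with an estimate above 0 and a median log2 fold change of 0.06. Of these, 0 passed (1 had an unadjusted p under 0.05). The median was -0.01 without *Mef2c* cKO replicate 1 and -0.10 with the 12-week mice alone, so the common sign rests on single mice. *Uqcrc1* (chr9:108838661-108851685), core protein 1, had the most reads and the largest estimate of the complex. Its values were 204, 220 and 192 CPM in controls and 264, 238 and 226 CPM in *Mef2c* cKO mice. The groups did not overlap, and the log2 fold change was 0.24 (95% interval 0.07 to 0.41) with an adjusted p of 0.0607 in limma. *Cyc1*, the cytochrome c1 subunit, did not overlap either, with means of 76.1 ± 3.56 and 83.0 ± 3.15 CPM (SD, n = 3) and a log2 fold change of 0.13. *Cycs* (chr6:50512562-50516537), the carrier between complexes III and IV, had 94.7, 87.2 and 73.4 CPM in controls and 91.2, 90.7 and 85.4 CPM in *Mef2c* cKO mice. Its groups overlapped (log2 fold change 0.07, 95% interval -0.13 to 0.28), and 41.3% of its 31-base words occur elsewhere in the genome.

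Complex IV, the cytochrome c oxidase, had estimates from -0.83 to 0.19 with a median of 0.03 over 13 tested members. Of these, 0 passed (1 had an unadjusted p under 0.05). This range was the widest of the complexes only through the low-level isoforms *Cox6a2*, *Cox7a1* (-0.45) and *Cox4i2* (-0.36). Among members with a mean of at least 5 CPM, estimates ran from -0.11 (*Cox6c*) to 0.19 (*Cox7c*) with a median of 0.09. *Cox6a2* (chr7:135348950-135349880), the isoform of subunit 6a typical of heart and skeletal muscle, had the lowest estimate. It had 2.41, 2.23 and 1.30 CPM in controls and 0.947, 1.35 and 0.868 CPM in *Mef2c* cKO mice. These values rest on 26 to 110 reads per library, *Mef2c* cKO replicate 2 was just above control replicate 3, and the log2 fold change of -0.83 (95% interval -1.42 to -0.23) had an adjusted p of 0.0657 in limma. The small accessory subunit *Cox7c* (chr13:86184421-86186509) had 130, 131 and 118 CPM against 153, 155 and 126 CPM. Its lowest *Mef2c* cKO mouse, replicate 3, was below 2 of the 3 controls (log2 fold change 0.19, adjusted p = 0.189 by limma). *Cox6a1*, the form of subunit 6a found in most tissues and the member of complex IV with the highest mean CPM, had 245, 253 and 252 CPM against 276, 283 and 235 CPM, with *Mef2c* cKO replicate 3 the lowest of all 6 (log2 fold change 0.08).

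Complex V makes ATP from the proton gradient, and 0 of its 17 members passed, with log2 fold changes from -0.19 to 0.33 and a median of 0.02 (1 had an unadjusted p under 0.05). *Atp5b* (chr10:127520329-127527447) had the most reads of all members, with 1115, 962 and 1043 CPM in controls and 1012, 1059 and 1077 CPM in *Mef2c* cKO mice. The control group held both the highest and the lowest value, and the log2 fold change was 0.02 (95% interval -0.14 to 0.17). *Atp5g1* (chr11:95930166-95936984), a gene for the c subunit that forms the rotor ring, had the smallest p-value of all 81 members. It had 28.6, 33.3 and 29.8 CPM in controls and 40.95, 41.6 and 33.1 CPM in *Mef2c* cKO mice. *Mef2c* cKO replicate 3 was slightly below control replicate 2, and the log2 fold change of 0.33 (95% interval 0.10 to 0.56) had an adjusted p of 0.0601 in limma. A share of 33.2% of the 31-base words of *Atp5g1* occur elsewhere, counted on its longest coding transcript of 4715 bases. The length used for its level was 691 bases. *Atp5h* (chr11:115277003-115281276), subunit d of the peripheral stalk, had 101, 119 and 100.1 CPM against 140, 128 and 107 CPM, with *Mef2c* cKO replicate 3 among the controls (log2 fold change 0.22, adjusted p = 0.196 by limma). *Atp5sl*, whose symbol matches the rule although its protein is not a subunit of the enzyme, was the only member with non-overlapping groups that was lower in *Mef2c* cKO mice (34.9 ± 0.990 against 32.7 ± 0.888 CPM, SD, n = 3, log2 fold change -0.09).

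**Figure D3:**
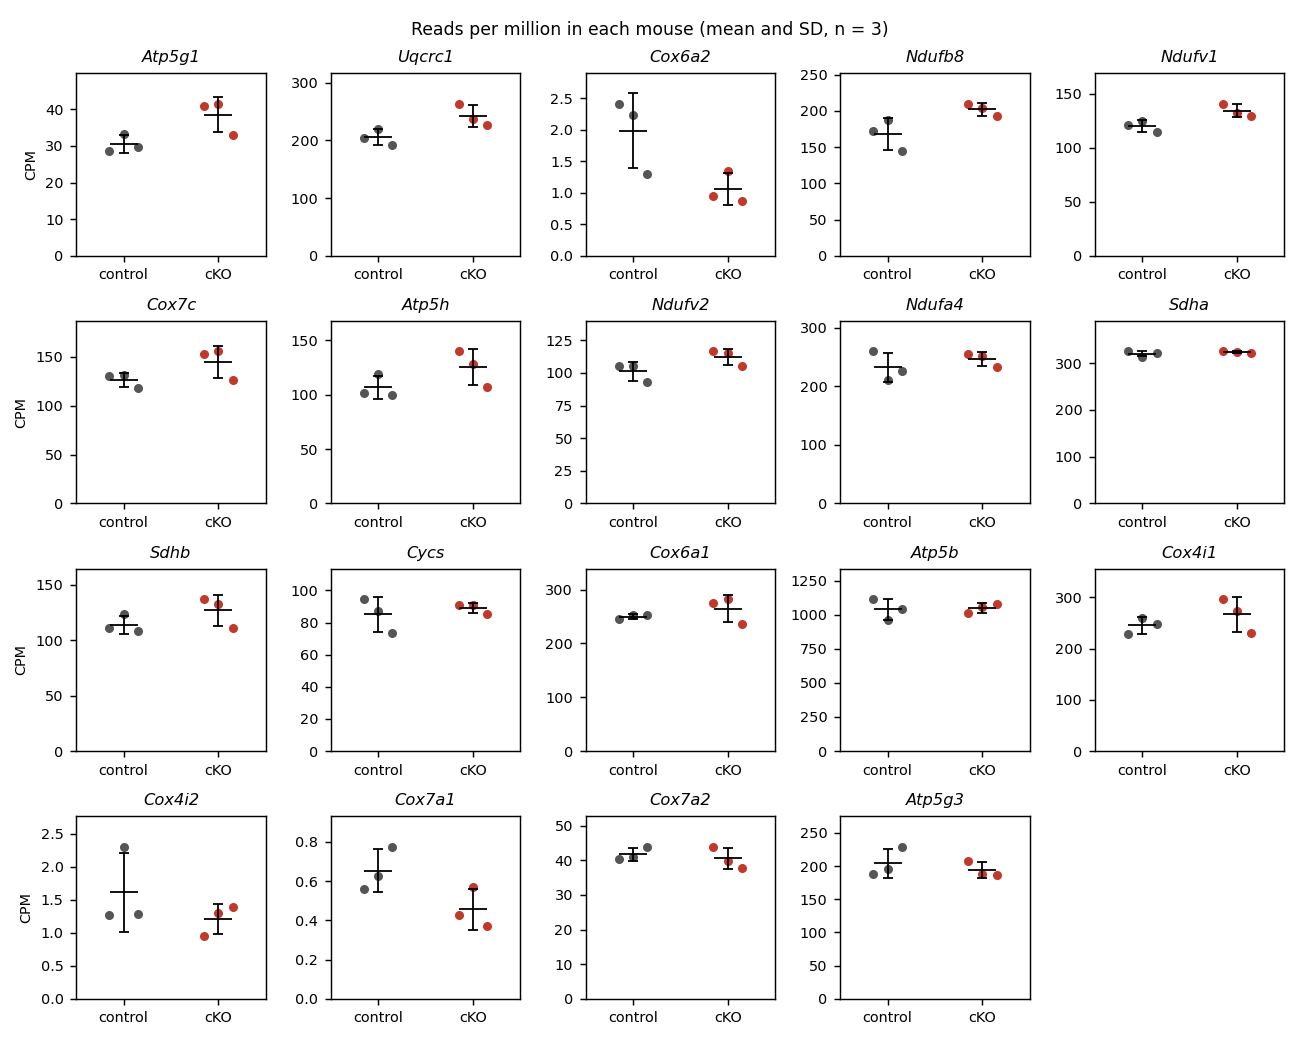
CPM in each mouse for the 19 members named by the rule (grey points control, red points *Mef2c* cKO, bars mean and SD, n = 3, axes start at 0). In *Sdha* all 6 points lie between 314 and 325 CPM, whereas in *Cox4i1*, *Cox7c* and *Atp5h* *Mef2c* cKO replicate 1 or 2 is the highest point and replicate 3 lies among the controls.

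The members deviated together from mouse to mouse, and mice of the *Mef2c* cKO group lay further apart than the genotypes did. Taking each gene's deviation from its mean over 6 mice on the log2 scale, the median over the 81 members was -0.08, -0.01 and -0.02 in control replicates 1, 2 and 3 and 0.16, 0.05 and -0.13 in *Mef2c* cKO replicates 1, 2 and 3. *Mef2c* cKO replicate 1 was thus highest and *Mef2c* cKO replicate 3 lowest, and the controls lay between them, while the mean of the *Mef2c* cKO medians exceeded that of the controls by 0.07. Of the 81 members, 65 were above their own mean in *Mef2c* cKO replicate 1 and 20 in *Mef2c* cKO replicate 3. *Mef2c* cKO replicate 1 was the highest of the 6 mice in 41 members, and *Mef2c* cKO replicate 3 or control replicate 1 was the lowest in 50. All members together took 0.803%, 0.805% and 0.808% of the reads in controls and 0.893%, 0.856% and 0.793% in *Mef2c* cKO mice. The summed level was 8055 ± 26.2 CPM in controls and 8472 ± 501 CPM in *Mef2c* cKO mice (SD, n = 3), a wider spread in the second group. *Atp5e*, the epsilon subunit of the ATP synthase, varied most among the 77 members with a mean of at least 5 CPM, 2.07-fold between its highest and lowest mouse. It had 22.4, 20.6 and 35.9 CPM in controls and 32.4, 19.97 and 17.4 CPM in *Mef2c* cKO mice. Each of the 5 most variable members, which also include *Uqcr11*, *Ndufa11*, *Ndufa3* and *Atp5o*, spanned at least 1.73-fold.

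This ordering of the mice was stronger in members with short transcripts. In the 40 members with a transcript under the members' median of 711 bases, the median deviation was 0.23 in *Mef2c* cKO replicate 1 and -0.21 in *Mef2c* cKO replicate 3. In the 41 others these values were 0.07 and -0.03. Across the 81 members, which share libraries and depth and are not independent replicates, the deviation in *Mef2c* cKO replicate 3 was higher for longer transcripts (Pearson's r = 0.47, Spearman's rho = 0.49), and that in *Mef2c* cKO replicate 1 was lower (r = -0.25, rho = -0.34). Controls differed in the same way, with r = 0.30, -0.10 and -0.28 in replicates 1, 2 and 3, and *Mef2c* cKO replicate 2 had r = -0.04. The same mice stood at the ends in the 75 tested genes for cytosolic ribosomal proteins, with median deviations of 0.23 in *Mef2c* cKO replicate 1, -0.16 in *Mef2c* cKO replicate 3 and -0.17 in control replicate 1. Over the 146 tested genes of all kinds with transcripts under 500 bases they were 0.10, -0.11 and -0.10, and over the 5553 genes of 2000 to 4000 bases they were 0.00045, 0.01 and -0.02. The 23 genes of the TCA cycle and pyruvate dehydrogenase, most of them longer, had a median deviation between -0.03 and 0.03 in every mouse, while their log2 fold changes ran from -0.26 to 0.21. Whether RNA integrity or library preparation differed between these mice was not tested, since no such value was analysed here. With the values adjusted for transcript length, 0 members passed, the median log2 fold change was 0.03, and *Atp5g1* had an adjusted p of 0.0377 in limma with a log2 fold change of 0.30 that did not exceed the cut-off. The within-genotype SD on the log2 scale had a median of 0.151 over the members and of 0.114 over all tested genes.

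**Figure D4:**
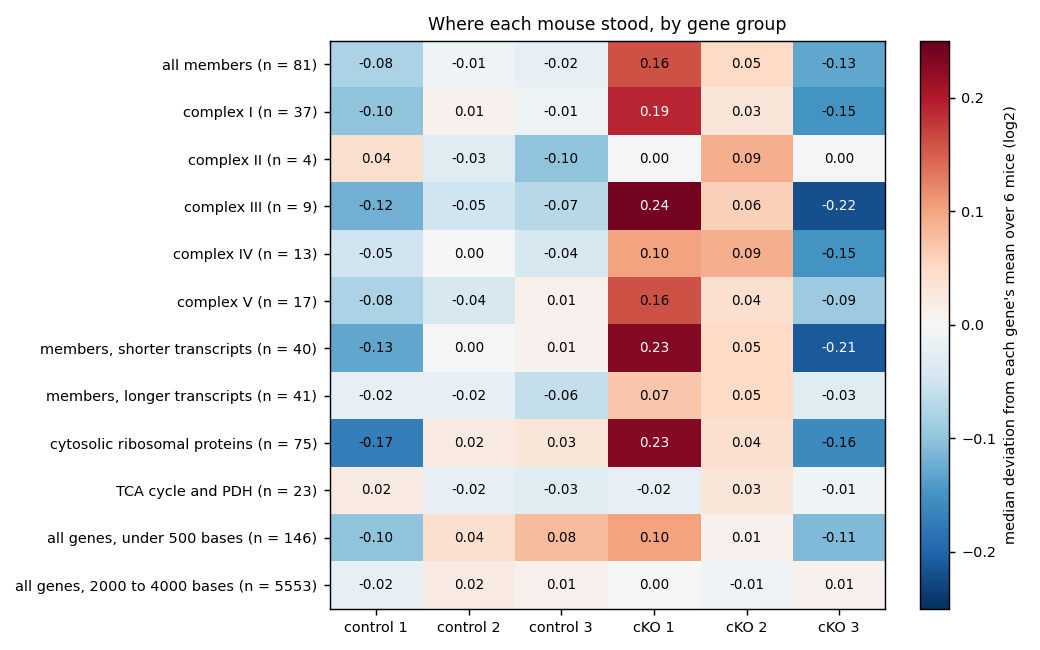
Median deviation from each gene's own mean over 6 mice (log2 scale, colour and printed value) for groups of genes (rows) in each mouse (columns). In the members with shorter transcripts the value is 0.23 in *Mef2c* cKO replicate 1 and -0.21 in *Mef2c* cKO replicate 3, and the median of the TCA cycle genes lies between -0.03 and 0.03.

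The median difference of the members had opposite signs at the 2 ages, but age cannot be told apart from the single mice here. Between the 14-week mice, with 1 mouse of each genotype and so no test, the median log2 difference of the 81 members was 0.24, and 59 were higher in the *Mef2c* cKO mouse. Between the 12-week mice, with 2 of each genotype, it was -0.05, and 34 members were higher in *Mef2c* cKO mice. With the 12-week mice alone 1 member passed, *Ndufs5*, a decreased subunit of complex I, against 9.97% of all genes tested there. Without *Mef2c* cKO replicate 3 there were 3 members that passed, *Atp5g1*, *Atp5h* and *Cox8a*, all increased, against 12.4% of all genes tested. *Ndufs5* had 16.2, 20.5 and 22.3 CPM in controls and 22.1, 14.9 and 14.8 CPM in *Mef2c* cKO mice, so the 14-week *Mef2c* cKO mouse was among the controls. In the deposited RPKM values, whose gene lengths differ between libraries, 0 of 68 tested members passed in limma (smallest adjusted p = 0.281), against 0.176% of 7974 tested genes.

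Several subunits are made as alternative isoforms from paralogous genes, and their ratio within a mouse does not depend on the library's total. The log2 ratio of reads of *Cox6a1* to *Cox6a2* was 6.67, 6.83 and 7.60 in controls and 8.19, 7.71 and 8.08 in *Mef2c* cKO mice. The genotypes did not overlap, with the higher ratio in *Mef2c* cKO and a difference of 0.96 (exact permutation test, two-sided, p = 0.10, adjusted over 4 ratios 0.20). The ratio of *Atp5g1* to *Atp5g3*, both genes for the c subunit, was -2.72, -2.55 and -2.95 in controls and -2.35, -2.18 and -2.50 in *Mef2c* cKO mice. These groups did not overlap either, with a difference of 0.40 (exact permutation test, p = 0.10, adjusted 0.20), and *Atp5g3* itself had 204 ± 22.1 CPM in controls and 195 ± 12.0 CPM in *Mef2c* cKO mice (SD, n = 3). With 3 mice against 3 this exact test cannot go below p = 0.10, and groups without overlap were common over all tested genes, as given above. The ratio of *Cox4i1* to its low-level paralogue *Cox4i2* overlapped between genotypes (means 7.30 ± 0.42 and 7.80 ± 0.46, SD, n = 3, exact permutation p = 0.30, adjusted 0.30). So did that of *Cox7a1*, the muscle form, to *Cox7a2* (-6.01 ± 0.17 and -6.50 ± 0.32, SD, n = 3). *Cox7a1* entered the test only through the controls, the group where it is higher, since 2 of its 3 *Mef2c* cKO values were under the minimum of 0.5 CPM. Its values are therefore a description, and no p-value is given for it. *Cox4i2* and *Cox7a1* had means of at most 1.62 and 0.654 CPM in either genotype, with log2 fold changes of -0.36 and -0.45. That of *Cox4i2* did not pass (adjusted p = 0.424 by limma). Without control replicate 2 the log2 fold change of *Cox4i2* was -0.08 and the difference in its ratio was 0.25, against 0.49 with all mice, and the latter was also 0.25 without *Mef2c* cKO replicate 1. *Cox4i1* (log2 fold change 0.11) and *Cox7a2* (-0.04) did not pass either.

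**Figure D5:**
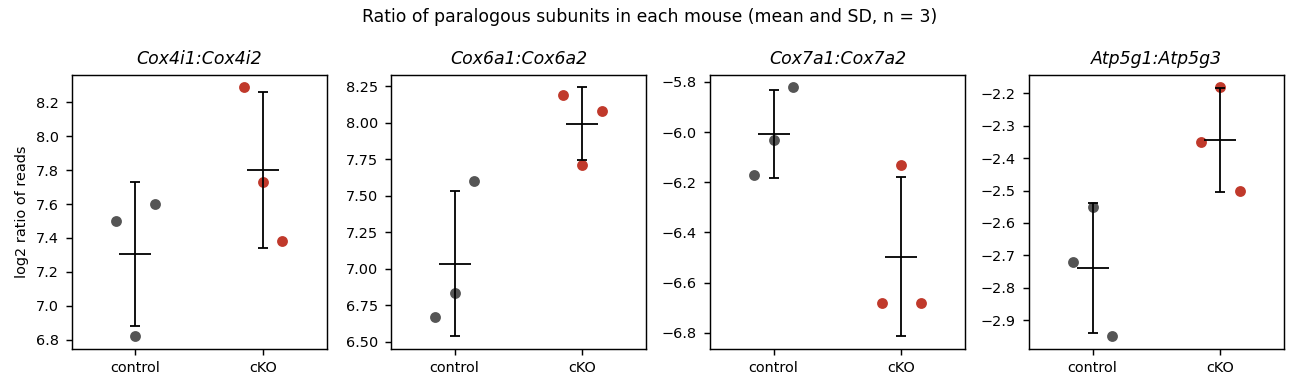
Log2 ratio of reads of 2 paralogous subunit genes in each mouse (grey points control, red points *Mef2c* cKO, bars mean and SD, n = 3; axes do not start at 0). The groups do not overlap for *Cox6a1* to *Cox6a2* and *Atp5g1* to *Atp5g3* and overlap for the other ratios.

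Promoters of many respiratory genes are known to carry sites for the factors NRF1 and YY1, and a letter search shows which members have a close match. Promoters in RefSeq, taken from 250 bases before to 50 bases after each gene's start (GRCm38.p6, another build than the mm9 coordinates given above), were matched for 70 of the 85 members and searched on both strands. The NRF1 palindrome, in capitals in the first group of sequences, was in 5 of the 70, or 7.14%, against 1.07% of the 27025 genes with a promoter. The YY1 word, in capitals in the second group, was in 6, or 8.57%, against 0.995%. The ETS-type word CCGGAAGT was in 5, or 7.14%, against 4.31%, the cyclic AMP response element TGACGTCA in 5, or 7.14%, against 2.03%, and the MEF2 motif in 0 against 0.636%. A match is a description of letters and not a site of binding, and a missing match says only that the letters are not in this window. The windows with the NRF1 palindrome are shown because *Uqcrc1* and *Cox6a1* are among the members described above, with the motif in capitals and each sequence read on the gene's strand:
Atp5g2 (chr15:102671070-102671099): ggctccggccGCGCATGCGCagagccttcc
Atp5k (chr5:108434430-108434459): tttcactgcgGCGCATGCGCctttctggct
Cox6a1 (chr5:115349101-115349130): caggaacgggGCGCATGCGCgctctcgctc
Ndufa11 (chr17:56717692-56717721): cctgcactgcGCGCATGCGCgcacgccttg
Uqcrc1 (chr9:108936668-108936697): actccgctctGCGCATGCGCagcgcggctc
The 6 windows with the YY1 word are shown for their position. In 5 of them the word begins 24 to 35 bases after the gene's start, and in *Atp5j* it begins 88 bases before it:
Atp5j (chr16:84835045-84835074): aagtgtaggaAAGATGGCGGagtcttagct
Atp5sl (chr7:25619430-25619459): gttacctggcAAGATGGCGGcgcccagagc
Ndufa9 (chr6:126849096-126849125): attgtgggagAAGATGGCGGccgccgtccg
Ndufs4 (chr13:114388045-114388069): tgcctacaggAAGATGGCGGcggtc
Ndufs6 (chr13:73328433-73328459): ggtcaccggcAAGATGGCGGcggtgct
Ndufs7 (chr10:80249463-80249492): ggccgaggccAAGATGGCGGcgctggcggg
Of these 11 members, 0 passed the cut-offs in limma, *Uqcrc1* being the 1 with an unadjusted p under 0.05, and their log2 fold changes ran from -0.11 to 0.24.

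Other lists of energy metabolism held some calls, to be read against the 13.7% of all tested genes given above. Among regulators of mitochondrial biogenesis, 2 of 19 tested genes passed, or 10.5%, and both encode estrogen-related receptors, nuclear receptors known to act on respiratory genes together with PGC-1 coactivators. *Esrrg* had 62.2, 52.6 and 63.5 CPM in controls and 24.0, 34.2 and 30.9 CPM in *Mef2c* cKO mice, all below all controls, and fell by 1.01 on the log2 scale (SE 0.13, adjusted p = 0.000675 by limma). *Esrra* had 56.6, 60.5 and 59.7 CPM against 77.5, 75.5 and 69.9 CPM, all above all controls, and rose by 0.33 (SE 0.06, adjusted p = 0.00628 by limma). *Esrra* did not pass with the 12-week mice alone (log2 fold change 0.27, adjusted p = 0.0677).

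Among factors that assemble the complexes, 2 of 44 tested genes passed, or 4.55%, both decreased. *Atpaf1*, an assembly factor of the ATP synthase, had 61.7, 58.0 and 56.2 CPM in controls and 44.8, 48.1 and 48.3 CPM in *Mef2c* cKO mice (log2 fold change -0.32, SE 0.07, adjusted p = 0.00969 by limma). *Lyrm7*, which serves the insertion of the iron-sulfur protein of complex III, had 9.85, 15.4 and 13.8 CPM against 8.95, 8.54 and 8.07 CPM (log2 fold change -0.58, SE 0.16, adjusted p = 0.0334 by limma). *Lyrm7* did not pass without any 1 of control replicates 2 and 3 and the *Mef2c* cKO mice (adjusted p = 0.0646 to 0.112), or in the setting without a variance trend (0.0669), and *Atpaf1* fell short of the fold cut-off without *Mef2c* cKO replicate 1 or control replicate 1 (-0.28 in each case) and did not pass with the 12-week mice alone (-0.24, adjusted p = 0.0891).

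In glycolysis, which feeds pyruvate to the mitochondrion, 3 of 19 tested genes passed, or 15.8%. *Ldhb*, the lactate dehydrogenase subunit that favours making pyruvate from lactate, had 714, 640 and 694 CPM in controls and 493, 495 and 530 CPM in *Mef2c* cKO mice and fell by 0.43 (SE 0.06, adjusted p = 0.00152 by limma). *Pfkl*, a phosphofructokinase subunit, rose by 0.36 (SE 0.08, adjusted p = 0.0123 by limma). The neuronal enolase *Eno2*, also on the list of general neuron markers, had 1159, 1142 and 1050 CPM against 1431, 1392 and 1427 CPM and rose by 0.34 (SE 0.06, adjusted p = 0.00519 by limma). *Pfkl* did not pass with the 12-week mice alone (adjusted p = 0.0705) or without *Mef2c* cKO replicate 3, where its log2 fold change was 0.30. The other lists gave no call in limma. These were the TCA cycle with pyruvate dehydrogenase (0 of 23, 3 at an unadjusted p under 0.05, median log2 fold change -0.0032), carriers and import (0 of 15, 1 at an unadjusted p under 0.05, median 0.01), 7 respiratory subunits outside the symbol rule (0 at an unadjusted p under 0.05, median 0.06) and mitochondrial ribosomal proteins (0 of 76, 6 at an unadjusted p under 0.05, median 0.05). In the TCA cycle list the smallest adjusted p was 0.0158 by limma, and only the fold cut-off was missed (log2 fold changes -0.26 to 0.21).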

How the data were processed

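The authors sequenced polyA RNA of somatosensory cortex with a directional library (3 mice per genotype), aligned reads to mm9 with TopHat and Bowtie and counted them per gene with HTSeq (versions not given in the sources used here). The authors deposited RPKM values, 1 file per mouse with 21759 rows. The gene length used for a row differed between files, because short lists of 65 to 296 lengths had been repeated down the rows in order of gene ID, so RPKM values could not be compared between mice as deposited. After this was seen, whole counts were recovered from the RPKM steps, with lengths and totals that gave whole numbers for 99.898% to 99.988% of values, and divided by the recovered total of each library (19326365 to 54128334 reads), a depth that limits the precision of low genes. The share of reads in 92 rows without a symbol was 0.0574% to 0.0853%, and these rows were left out. All members with a value received a count.

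Genes with a CPM above 0.5 in every mouse of at least 1 genotype were tested with limma 3.58.1 (R 4.3.3) on log2(CPM + 0.1), with a variance trend and Benjamini-Hochberg adjustment over 14625 genes. A gene passed at an adjusted p under 0.05 and an absolute log2 fold change above 0.3. A fold change on this scale understates the change of low genes. Paralogue ratios were compared by an exact two-sided permutation test over mice. The scripts were tested on simulated data. Members and gene lists were chosen with earlier results of these data known. Named members were the 8 with the smallest p, the highest CPM and the largest change of each complex, and the paralogue pairs. In the other energy lists, genes that passed were named. Transcript positions and 31-base words refer to mm9. Scalings, filters, pseudocounts, the replicate number as a block, each mouse left out and the 12-week mice alone were tried as alternatives.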

Additional observations from a re-analysis of the deposited data

How the results depend on the processing

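Of 19 alternative settings, 14 gave 0 members past the cut-offs, among them other scalings, pseudocounts, filters and voom weights, the last chosen after the data were seen. These 14 include the deposited RPKM values, where only 0.176% of 7974 tested genes passed, so 0 members there says little. With the 12-week mice alone 1 member passed, decreased (*Ndufs5*). With single mice left out in turn there were 0 to 3 members, with 0 to 1 decreased and 0 to 3 increased. These were *Cox6a2* without *Mef2c* cKO replicate 2 (adjusted p = 0.0464 by limma) or control replicate 3 (log2 fold change -1.09, adjusted p = 0.0209), *Ndufb8* without control replicate 2 (0.35, 0.0348), and *Atp5g1* (0.44, 0.0135), *Atp5h* (0.33, 0.0468) and *Cox8a* without *Mef2c* cKO replicate 3. In 2 of the settings with 0 members, a member had an adjusted p under 0.05 in limma and missed only the fold cut-off, *Atp5g1* with adjustment for transcript length (0.30, adjusted p = 0.0377) and *Uqcrc1* with only those counts that the file of a mouse fixed by itself (0.29, adjusted p = 0.0454). The smallest adjusted p over members ran from 0.0135 to 0.281 across settings. Same-number mice did not deviate alike over all tested genes (correlations of deviations -0.18, -0.11 and -0.08), and over the 81 members these values were -0.66, 0.03 and -0.56. Whether same-number mice were littermates or were processed together was not tested. With the replicate block 0 members passed and 1695 genes in all, against 1997 without it.

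The median log2 fold change with the 12-week mice alone was -0.05 over members, -0.07 in complex I and -0.10 in complex III. In the deposited RPKM values it was 0.33 over members, 0.42 in complex I, 0.26 in complex II, -1.39 in complex III, 2.28 for cytochrome c, 0.13 in complex IV and 0.51 in complex V. The construction of those values differs between files, as described above. Over the mice left out in turn, the median ranged from 0.0013 to 0.12 over members, -0.03 to 0.13 in complex I, 0.02 to 0.08 in complex II, -0.01 to 0.18 in complex III, -0.03 to 0.16 in complex IV and 0.0013 to 0.11 in complex V. The lowest value in complexes I, III and V came without *Mef2c* cKO replicate 1 and the highest in complexes I, III, IV and V without *Mef2c* cKO replicate 3. Assembly factors that passed numbered 1 with the 12-week mice, 0 in RPKM, 1 without a variance trend, 1 with the replicate block, under which *Lyrm7* did not pass (adjusted p = 0.0587 by limma), and 0 to 1 with a mouse left out. Glycolysis and the regulators gave 0 in RPKM, and the regulators 1 with the 12-week mice. Mitochondrial ribosomal proteins gave 1 (*Mrpl38*) with TMM scaling, median-of-ratios scaling or adjustment for transcript length and 0 to 1 with a mouse left out.

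Signs turned in RPKM for *Ndufv1* (-0.87), *Atp5h* (-0.69), *Sdha* (-0.18), *Cox6a1* (-0.37), *Atp5b* (-0.89), *Cox4i1* (-0.27), *Cox7a2* (0.61), *Atp5g3* (0.07) and the ratio of *Cox6a1* to *Cox6a2* (-1.67). They also turned with the 12-week mice for *Cox4i1* (-0.02), without control replicate 2 for *Sdha* (-0.00072) and *Atp5b* (-0.04), without control replicate 3 for *Cycs* (-0.03) and *Atp5g3* (0.02), and without *Mef2c* cKO replicate 3 for *Atp5b* (-0.0033) and *Cox7a2* (0.01). With a mouse left out, *Sdha* ranged from -0.00072 to 0.03, *Cycs* from -0.03 to 0.15 and *Atp5g3* from -0.12 to 0.02. None of these passed in either setting. Outside the RPKM values, the cause was not tested. Depth limits *Cox6a2*, *Cox4i2* and *Cox7a1*, which had 11 to 114 reads per library.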

Other observations

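Other large protein complexes of the cell gave few calls as well. Among cytosolic ribosomal proteins, which make up the ribosome outside the mitochondrion, 2 of 75 tested genes passed, or 2.67%, against 13.7% of all tested genes, and the median log2 fold change was 0.10. *Rpl10a* had 54.9, 61.2 and 53.1 CPM in controls and 81.7, 75.2 and 79.1 CPM in *Mef2c* cKO mice and rose by 0.48 (SE 0.07, adjusted p = 0.00147 by limma). *Rps2* had 251, 310 and 319 CPM against 464, 384 and 372 CPM and rose by 0.47 (SE 0.11, adjusted p = 0.0171 by limma). All *Mef2c* cKO mice were above all controls in both genes. Ribosomal protein genes have many processed copies in the genome, so single counts are uncertain.

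In the proteasome, which degrades tagged proteins, 1 of 38 tested genes passed, or 2.63%. *Psmb5*, a catalytic subunit, had 32.6, 40.1 and 37.1 CPM in controls and 48.7, 47.3 and 45.1 CPM in *Mef2c* cKO mice and rose by 0.37 (SE 0.08, adjusted p = 0.0172 by limma). In the vacuolar ATPase, a proton pump of endosomes, lysosomes and synaptic vesicles, 1 of 19 tested genes passed, or 5.26%. *Atp6v1c2*, a low-level isoform of its C subunit, had 0.853, 1.74 and 1.13 CPM in controls and 0.336, 0.155 and 0.240 CPM in *Mef2c* cKO mice, which is 29 to 86 reads per library against 3 to 13. It entered the test only through the controls, the group where it is higher, so its values are a description and no test is given for it. The 5.26% rests on this gene alone.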
